A study of Mus musculus with 2 samples.

Results

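The nuclear-encoded genes of the respiratory chain were examined in J-RGCs, retinal ganglion cells of mouse pups at postnatal day 6. The 85 members were all symbols of the deposited gene lists that begin with Ndufa, Ndufb, Ndufc, Ndufs, Ndufv, Uqcr, Cox4 to Cox8 or Atp5, or are named Sdha to Sdhd. The 7 symbols beginning with Ndufaf, which name assembly factors, were left out. They were 85 of 24015 symbols, of which 16969 had at least 1 count in a library. The rule used symbols and no measured value, though it was set with earlier results of these data known.

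The study held 1 group of 2 libraries, here called A and B after their labels, each pooled from 5 to 6 animals of a separate litter. The cells expressed green fluorescent protein from a transgene specific to J-RGCs and were purified with magnetic beads and a flow cytometer, and genes were counted in single-end RNA-seq reads. Strain and sex were not given in the sources used here, and no second cell type, age or treatment was sampled. What can be compared is therefore 1 gene with another in these cells, and library A with library B.

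The inner mitochondrial membrane makes most of the ATP of a neuron. Complex I takes electrons from NADH and complex II from succinate, complex III passes them to cytochrome c, and complex IV hands them to oxygen. Complexes I, III and IV pump protons, and complex V, the ATP synthase, lets them flow back while it makes ATP. Complex II is encoded wholly in the nucleus, while the others also need subunits encoded by mitochondrial DNA. Several subunits of complex IV exist as a widespread form and as a form of heart and skeletal muscle, lung or testis. Retinal ganglion cells are known for a high demand for this pathway, and inherited optic neuropathies from complex I mutations affect them first.

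The gene counts of library A summed to 7916204 and those of library B to 13744313, and the members took 0.416% of the A total and 0.393% of the B total. All 9 ganglion cell markers, among them Rbpms, Pou4f2 and Jam2, reached 1 CPM (1 count in 1000000 gene counts) or more in A and in B, where they summed to 10653 CPM (A) and 12541 CPM (B). Markers of other cells were lower. Their sums in A and B were 39.8 and 33.5 CPM for 6 rod genes, 514 and 444 CPM for 6 Müller glia genes, 266 and 328 CPM for 6 microglia genes and 582 and 181 CPM for 6 mural cell genes. For 5 endothelial genes they were 7.83 and 24.6 CPM, and for 5 astrocyte genes 5.81 and 2.11 CPM. The 6 genes listed for bipolar cells summed to 131 and 42.1 CPM. Of these Grm6 gave 96.4 and 0.582 CPM, Otx2 20.3 and 20.0 CPM and Isl2, which is not particular to bipolar cells, 10.9 and 14.8 CPM. The 6 amacrine genes summed to 316 and 383 CPM, of which Pax6, which ganglion cells also express, gave 291 and 368 CPM. Every marker had a count in at least 1 library. How far such cells contributed to the members' counts was not tested, and fewer cells of a type cannot be told apart from less RNA per cell. No mitochondrially encoded gene was listed in the files.

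Of the 85 members, 76 (89.4%) were detected, meaning 1 CPM or more in A and in B, against 46.8% of all symbols. In A and B alike, 5 members (5.88%) reached 100 CPM or more, against 6.53% of all symbols, and all 5 encode parts of the ATP synthase: Atp5a1, Atp5b, Atp5g1, Atp5g3 and Atp5j. The median over all 85 members was 20.4 ± 1.23 CPM (SD, n = 2 libraries). Most members are short genes, with a median transcript length of 714 bases against 2673 bases for all symbols with a count. Levels of different genes were therefore compared per kilobase of transcript (CPM per kb). On that scale the median was 24.4 ± 2.29 CPM per kb over all members and 2.95 ± 0.866 CPM per kb over all symbols with a count (SD, n = 2 libraries). Length still mattered after this scaling. Among detected genes under 1000 bases, the median was 31.3 ± 1.33 CPM per kb over 49 members and 17.9 ± 2.30 over 725 genes in all. Among detected genes of 1000 bases or more it was 20.6 ± 4.24 CPM per kb over 27 members and 7.03 ± 1.19 over 10449 genes (SD, n = 2 libraries). With lengths summed over all exons of a gene, the members' median was 13.6 CPM per kb.

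**Figure D1:**
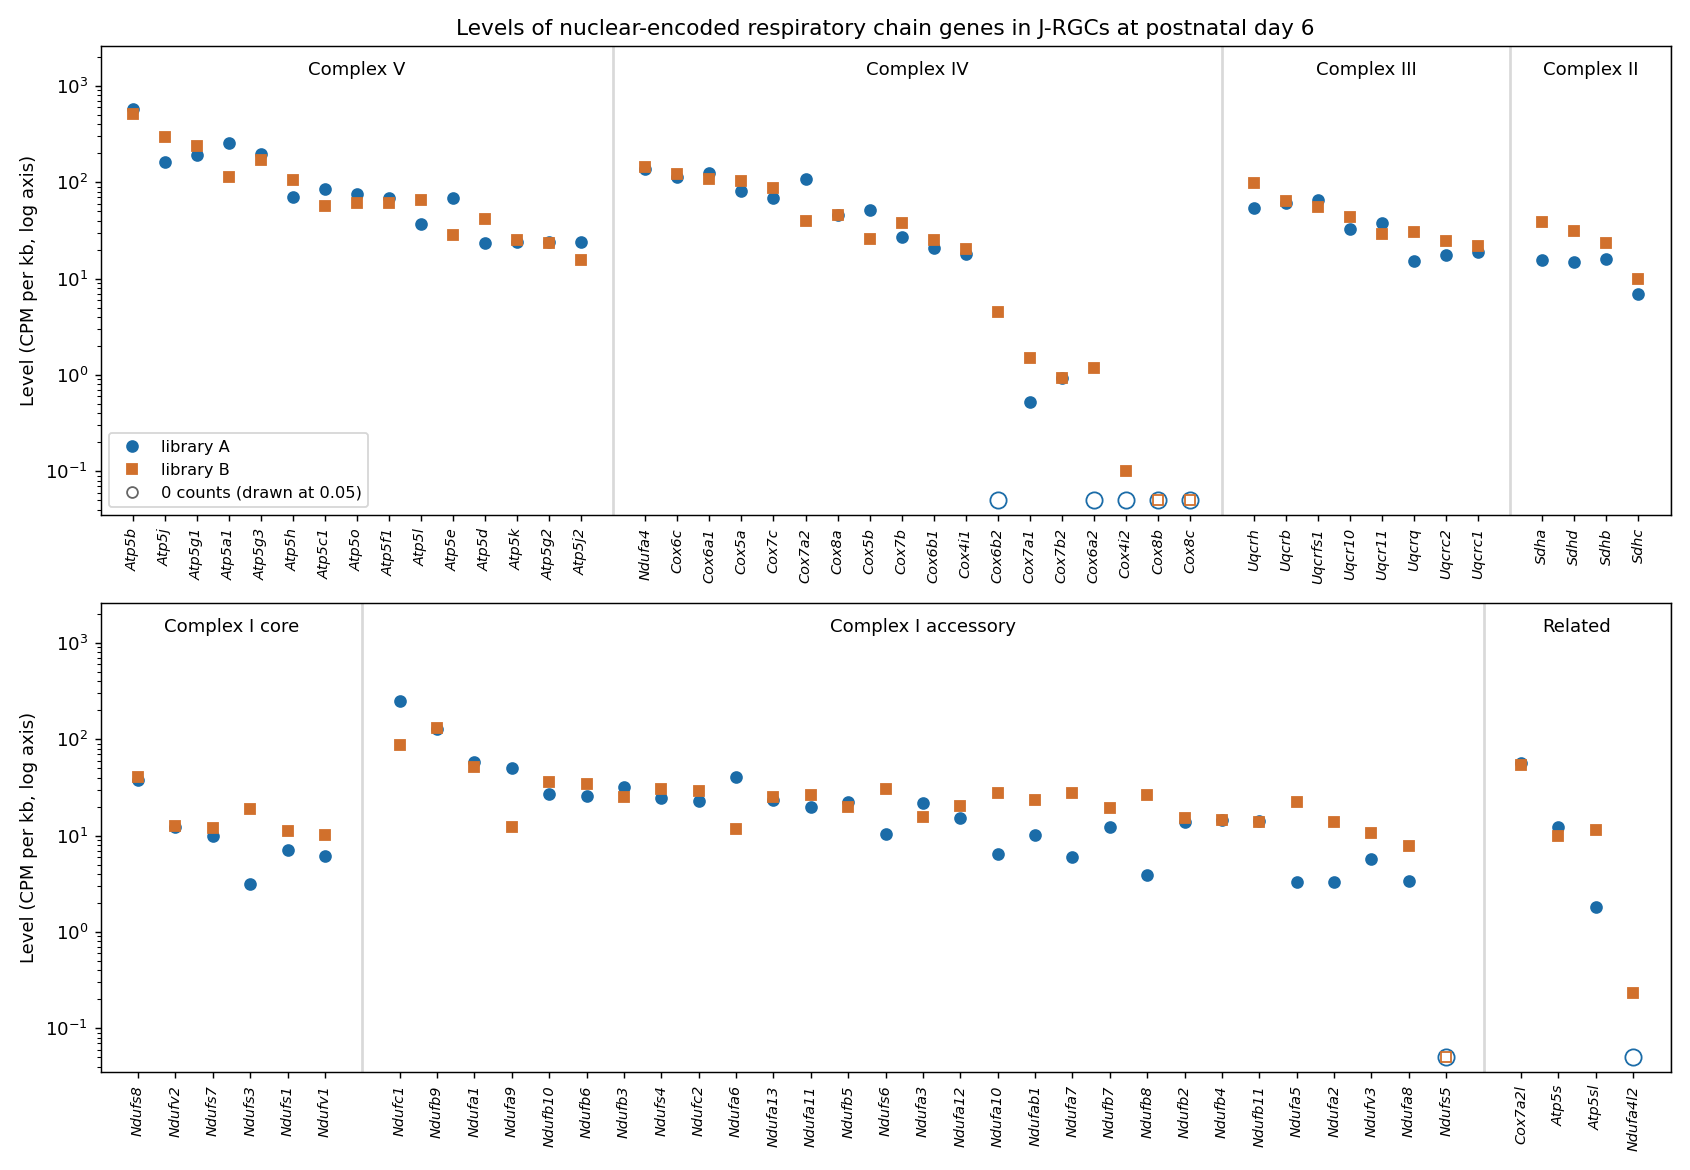
Level of the members in CPM per kb (log axis) in libraries A and B, grouped by complex and ordered by mean level within it, with open symbols for genes without a count, drawn at 0.05. Atp5b stands highest in both libraries, and the 9 members that were not detected lie at the bottom of complexes I and IV and of the related genes.

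The ATP synthase was the highest of the 5 complexes in both libraries. Its 15 genes had a median of 70.2 CPM per kb in A and 60.5 in B, and they held 60.8% of all member counts in A and 53.6% in B. Its median was 1.01 times that of the detected complex IV genes in A and 1.31 times in B, so these lay close. With summed exon lengths this order turned. The medians of the genes' means were then 28.0 CPM per kb for the detected complex IV genes and 26.3 for complex V. Atp5b, the catalytic beta subunit of the F1 head, had 579 and 509 CPM per kb in A and B and was the highest member in each library. Atp5a1, the alpha subunit that alternates with beta in the same head, had 258 and 114 CPM per kb. Although both subunits enter the head in equal number, the Atp5b level was 2.93 times the Atp5a1 level, with a 95% interval of 1.08 to 7.98. The ratio was 2.25 in A and 4.48 in B, and with summed exon lengths it was 1.68 and the interval took in equal levels.

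The other F1 genes were lower. The 5 genes of F1, with Atp5c1, Atp5d and Atp5e of the central shaft, had a median of 84.6 CPM per kb in A and 56.7 in B and held 45.5% and 35.0% of member counts. The 4 genes of the peripheral stalk had a median of 73.2 and 83.0 CPM per kb, led by Atp5j, coupling factor 6, with 164 and 294 CPM per kb. The 3 small membrane subunits were lowest, with a median of 24.2 CPM per kb in A and 25.3 in B. Among them Atp5j2, the f subunit, had 24.1 and 15.8 CPM per kb, the lowest mean of the complex.

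The rotor ring of complex V is built from subunit c, and mice encode the same mature subunit in 3 genes, Atp5g1, Atp5g2 and Atp5g3. Their last 225 coding bases, from the GENCODE M21 transcripts of GRCm38, are shown because they spell the same protein with different bases. Capitals mark the 57 positions at which the 3 genes are not all alike.
Atp5g1: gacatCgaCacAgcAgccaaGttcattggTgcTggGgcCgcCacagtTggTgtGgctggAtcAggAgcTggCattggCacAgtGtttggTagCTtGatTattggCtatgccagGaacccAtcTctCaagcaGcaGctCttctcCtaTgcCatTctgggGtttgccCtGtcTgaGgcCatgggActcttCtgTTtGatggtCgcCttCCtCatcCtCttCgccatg
Atp5g2: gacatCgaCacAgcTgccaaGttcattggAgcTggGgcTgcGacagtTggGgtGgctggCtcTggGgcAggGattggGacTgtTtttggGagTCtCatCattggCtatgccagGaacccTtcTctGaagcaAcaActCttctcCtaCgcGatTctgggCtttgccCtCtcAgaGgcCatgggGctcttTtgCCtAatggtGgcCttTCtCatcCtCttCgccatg
Atp5g3: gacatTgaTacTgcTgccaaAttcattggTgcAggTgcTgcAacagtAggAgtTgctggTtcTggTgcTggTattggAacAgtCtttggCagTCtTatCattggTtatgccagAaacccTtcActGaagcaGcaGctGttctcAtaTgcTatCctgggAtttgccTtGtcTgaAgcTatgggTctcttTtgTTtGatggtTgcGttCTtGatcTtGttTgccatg
Atp5g1 and Atp5g2 matched at 84.9% of these bases, Atp5g1 and Atp5g3 at 80.0%, and Atp5g2 and Atp5g3 at 78.7%. The longest run shared by a pair was 20 bases, and 32 of the 34 differences between Atp5g1 and Atp5g2 fell on the last base of a codon. In the cells, Atp5g1 had 193 and 240 CPM per kb in A and B, Atp5g3 198 and 168, and Atp5g2 24.1 and 23.3. The Atp5g1 level was 9.15 times that of Atp5g2, with an interval of 3.32 to 25.2, and the Atp5g3 level 7.75 times, with an interval of 2.81 to 21.4. Atp5g1 and Atp5g3 did not differ beyond their spread, at a ratio of 1.18 with an interval of 0.496 to 2.81. The Atp5g1 ratios hung on its length, since with the longest transcript among those of equal coding length its mean was 27.4 CPM per kb instead of 217. Its log2 ratio over Atp5g2 was then 0.94 with an interval of -0.52 to 2.40, not called, and that over Atp5g3 -2.73 with an interval of -3.98 to -1.47. With summed exon lengths the Atp5g1 level was 4.22 times that of Atp5g2, and the log2 ratio of Atp5g1 over Atp5g3 was -1.19. With the main lengths Atp5g2 was the least represented of the 3, with 5.80% of the family's level in A and 5.38% in B. All of the 32-base stretches of the Atp5g2 transcript, and 67.3% of those of Atp5g1, also occur in pseudogenes, while none of those of Atp5g3 do, so the Atp5g1 and Atp5g2 values are uncertain.

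Complex IV, cytochrome c oxidase, separated into a detected set and a set of tissue-specific isoforms near 0. Over all 18 genes the median was 23.7 CPM per kb in A and 25.7 in B. The 11 detected genes had a median of 69.2 CPM per kb in A and 46.3 in B. Ndufa4, which is named for complex I but is a subunit of complex IV, had 136 and 143 CPM per kb. Cox6c had 113 and 121 CPM per kb and Cox6a1 125 and 109. At the low end stood Cox4i1, the main form of the largest nuclear-encoded subunit, with 18.1 and 20.1 CPM per kb, and Cox6b1 with 20.6 and 25.4.

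For every one of the 6 complex IV families that have a tissue-restricted form, the widespread form held most of the family's level in both libraries. Cox4i2, the lung form of subunit IV, had no count in A and 1 in B, and Cox4i1 stood 305-fold above it, with a counting interval of 54.4 to 12102, and 201-fold in B alone. With summed exon lengths it was 159-fold. Cox6a2, of heart and skeletal muscle, had no count in A and 11 in B. The Cox6a1 level was 198 times that of Cox6a2, with an interval of 63.6 to 617, and 92.2 times in B alone. Cox7a1, another form of heart and skeletal muscle, had 2 counts in A and 10 in B, and the Cox7a2 level was 74.0 times higher, with an interval of 24.5 to 223, at 210 in A and 26.7 in B. Cox7b2, a testis form, had 4 and 7 counts, and the Cox7b level was 34.7 times higher, with an interval of 11.4 to 106. Cox8b, the muscle form of subunit VIII, and Cox8c, its testis form, had no count in either library. Cox8a, with 45.2 and 46.3 CPM per kb, was at least 119-fold higher than Cox8b and at least 152-fold higher than Cox8c, at a floor of 3 counts over both libraries.

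The smallest gap was in subunit VIb. Cox6b2, the testis form, had no count in A but 24 in B, which is 0 and 14.9% of the family's level. Cox6b1 was 10.3-fold higher over both libraries, with an interval of 3.35 to 31.8, and 5.69-fold higher in B alone. With summed exon lengths it was 25.5-fold higher. At a floor of 3 counts in A, Cox6b2 could have reached 0.379 CPM there, against 1.75 CPM in B.

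**Figure D2:**
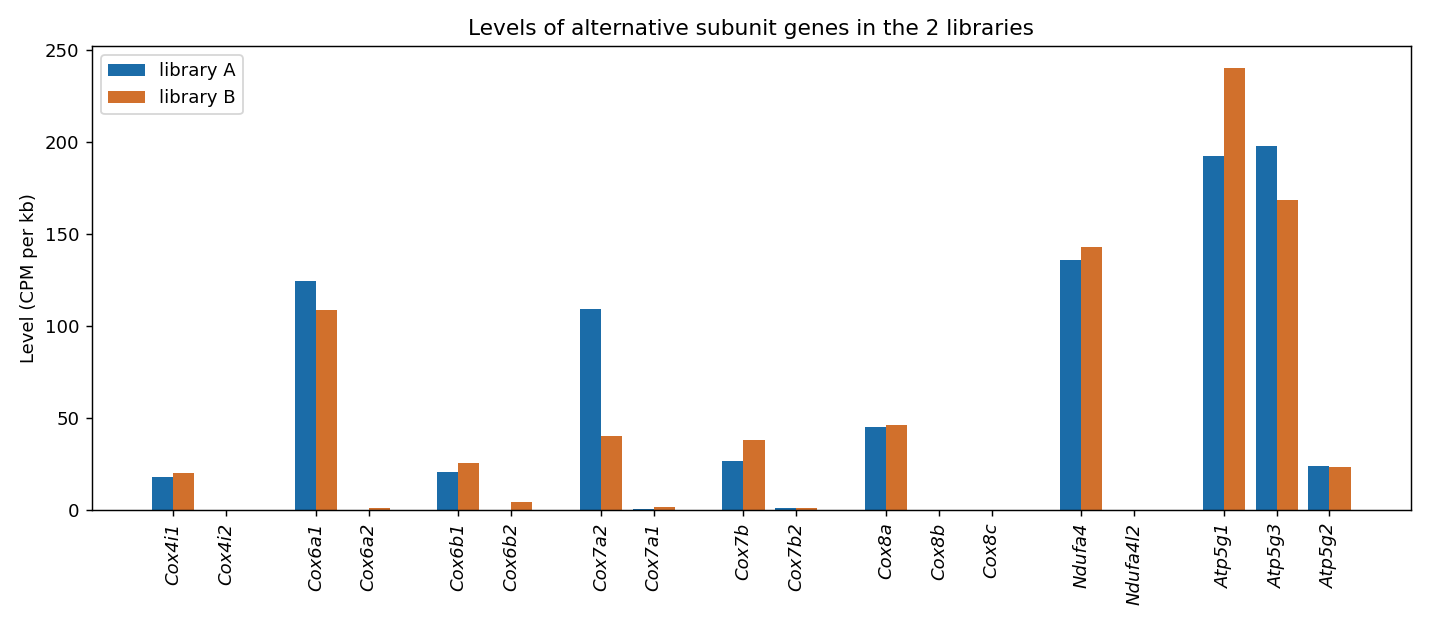
Bars give the level of each alternative subunit gene in CPM per kb (linear axis from 0) in libraries A and B, 1 bar a library with no error bar, grouped by family. The tissue forms of complex IV and Ndufa4l2 are near 0, Cox6b2 is visible in B at 4.47, and Atp5g2 stands at 24.1 in A and 23.3 in B, far below Atp5g1 and Atp5g3.

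Complex III, the cytochrome bc1 complex, had all 8 nuclear genes of the list detected within a range of 3.75-fold, the narrowest of complexes I, III, IV and V. Its median was 35.3 CPM per kb in A and 37.2 in B. Uqcrh, the hinge protein that binds cytochrome c1, had 54.3 and 98.4 CPM per kb. Uqcrb had 60.4 and 64.3 CPM per kb, and Uqcrfs1, the Rieske iron-sulfur protein, 65.9 and 55.6. The large core proteins Uqcrc1 and Uqcrc2 had the lowest means, with 19.0 and 21.7 CPM per kb for Uqcrc1 and 17.6 and 24.7 for Uqcrc2. Uqcrq, a small subunit, was below both in A, with 15.3 CPM per kb, and above both in B, with 30.7, and with the longer of its transcripts its mean was 6.12. The median of complex V was 1.99 times that of complex III in A and 1.63 times in B. With summed exon lengths the complexes lay close, at 24.5 CPM per kb for complex V and 25.3 for complex III as means of the library medians, and at 26.3 and 25.8 as medians of the genes' means.

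Complex II, succinate dehydrogenase, had all 4 genes detected, with a median of 15.2 CPM per kb in A and 27.4 in B. Sdha, the flavoprotein that oxidises succinate, had 15.6 and 39.1 CPM per kb. Sdhb, the iron-sulfur subunit, had 15.9 and 23.4. Of the membrane anchors, Sdhd had 14.8 and 31.3 CPM per kb and Sdhc, a gene with a transcript of 3171 bases, 7.01 and 9.82. All 4 values were higher in B. In the library test described below, which called 32.3% of all tested genes higher in B, Sdha and Sdhd were called, but neither call held under every scaling.

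Complex I had the lowest median in both libraries, 14.5 CPM per kb in A, close to complex II, and 20.0 in B, over 36 genes of which 35 were detected. The complex V median was 4.83 times as high in A and 3.03 times in B. The 7 nuclear core subunits of complex I, which bind NADH and carry the electrons through iron-sulfur clusters, had a median of 11.2 ± 1.75 CPM per kb, against 19.4 ± 5.95 for the 29 accessory subunits (SD, n = 2 libraries). The core genes were longer, with a median transcript of 1623 bases against 683, and how far length bears on this difference was not tested. Ndufs8 was the highest core gene with 37.9 and 40.8 CPM per kb. Ndufv2 had 12.3 and 12.5 CPM per kb, and Ndufs3 3.14 and 18.9. Ndufs7 had 7.58 and 9.17 CPM on a transcript of 758 bases. The lowest by the mean of the libraries were Ndufs1, with 7.02 and 11.1 CPM per kb, and Ndufv1, which holds the NADH site, with 6.16 and 10.3, while in A alone Ndufs3 was lowest. Apart from Ndufs3, whose levels lay far apart, the core genes named here kept to between 6.16 and 40.8 CPM per kb in both libraries.

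The accessory subunits, which surround the core and are needed for its assembly and stability, ranged more widely. Ndufc1 had 251 and 87.3 CPM per kb, the highest of complex I in A and by mean, though with the longer of its annotated transcripts its mean was 42.7. Ndufb9 had 127 and 131 CPM per kb and was above Ndufc1 in B. Ndufa8 had 3.37 and 7.77 CPM per kb and Ndufv3 5.75 and 10.6, the lowest detected accessory genes by mean. In A alone Ndufa2, with 3.31, and Ndufa5, with 3.32, were below both. With the longest transcript among those of equal coding length, Ndufb2 was the lowest by mean, at 1.52 CPM per kb instead of 14.6. With the main lengths complex I spanned 30.3-fold between its highest and lowest detected means, against 27.3-fold in complex V.

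Ndufs5 was the only complex I gene with no count in either library. It encodes an accessory subunit of the membrane arm, and the first 300 bases of its coding sequence, from GENCODE M21 on GRCm38, are shown because most of it recurs elsewhere. Capitals mark bases that lie in a 32-base stretch also found in the transcript of BC002163, annotated as a pseudogene.
Ndufs5: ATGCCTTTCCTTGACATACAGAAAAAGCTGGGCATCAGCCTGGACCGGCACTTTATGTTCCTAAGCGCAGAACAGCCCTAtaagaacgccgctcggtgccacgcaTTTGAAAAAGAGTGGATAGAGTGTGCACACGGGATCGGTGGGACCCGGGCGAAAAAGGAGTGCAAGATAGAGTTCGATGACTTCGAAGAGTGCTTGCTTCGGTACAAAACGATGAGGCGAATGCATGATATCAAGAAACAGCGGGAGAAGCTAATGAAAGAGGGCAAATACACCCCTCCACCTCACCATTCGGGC
Of all 318 coding bases 293 (92.1%) were so shared. Over the whole transcript of 525 bases the share was lower, at 47.0% of the 32-base stretches. Every member with a larger share was detected, for example Atp5h at 78.7% and Uqcrb at 53.6%. How far copies bear on the lack of counts was not tested. BC002163 itself had 0 counts in A and 6 in B. A count of 0 allows up to 0.379 CPM in A and 0.218 CPM in B, and the counts do not show whether Ndufs5 is expressed.

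**Figure D3:**
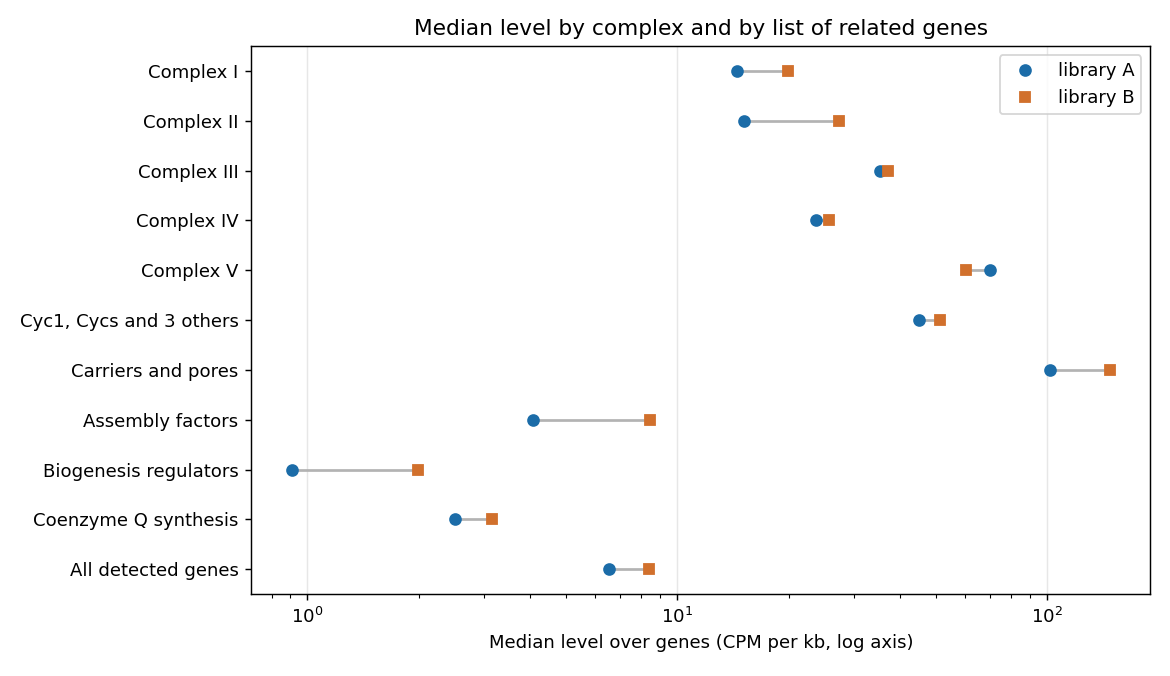
Median level in CPM per kb (log axis) in libraries A (circles) and B (squares) over all genes, detected or not, of complexes I to V and of the other gene lists of the pathway, with all detected genes of the libraries at the bottom. Complex V is the highest complex and complex I the lowest in both libraries.

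The other 4 genes that the names take in are not regular subunits. Cox7a2l, known in mouse as the factor that joins complexes III and IV in supercomplexes, had 56.6 and 53.6 CPM per kb. Cox7a2, its subunit relative, had 109 and 40.1, and the ratio of 1.36 had an interval of 0.583 to 3.16. Atp5s, related to coupling factor B, had 12.2 and 9.95 CPM per kb, and Atp5sl, an assembly factor of complex I despite its name, had 1.81 and 11.5. Ndufa4l2, a hypoxia-induced relative of Ndufa4, had no count in A and 3 in B, and Ndufa4 stood 946-fold above it, with a counting interval of 323 to 4591. The ratio was 611 in B alone and 363 with summed exon lengths.

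Copies in the genome bear on these counts, since reads that aligned to several places, 18.5% in A and 20.8% in B, were listed apart from the genes. In 31 of the 85 members (36.5%), at least 10% of the 32-base stretches of the transcript occurred in another annotated gene, against 12.1% of detected protein-coding genes and 19.7% of all protein-coding genes. In 7 members (8.24%) the share was 50% or more, against 3.297% of detected and 7.73% of all protein-coding genes. The 30 detected members with at least 10% shared had medians of 44.9 CPM per kb in A and 42.0 in B, against 22.1 and 26.6 for the 46 with less. They were also shorter, with a median of 583.5 bases against 903, and across the 76 detected members the level had a Spearman's rho of 0.28 with the share and of -0.30 with length. These are descriptions across genes, which are not independent. In 14 members at least 10% of the transcript overlapped an exon of a gene on the other strand, for example 18.0% of Cox4i1 with Emc8, and strand use in counting was not given in the sources used here.

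The promoters were searched because many of these genes are known targets of nuclear respiratory factor 1 (NRF1), of the ETS factor GABP, also called nuclear respiratory factor 2, and of YY1. RefSeq windows of GRCm38.p6, from 250 bases before to 50 after the start, were at hand for 67 members. The words searched on both strands were GCGCA and GCGC with any 1 base between them for NRF1, CCGGAAG for ETS factors, AAGATGGC for YY1 and TATAAA for the TATA box. Shown are the 250 bases before the start of Cox6a1, a widespread form that stood far above its muscle form, and of Sdha, with matches in capitals. Both were picked from detected members whose window held the NRF1 word, so its presence in them is not a result. Atp5h and Atp5c1, picked by the same rule and not shown, held it only at -141 and at -17 from the start. The Cox6a1 window is chr5:115348959-115349208 on the minus strand and the Sdha window chr13:74350241-74350490 on the minus strand.
Cox6a1: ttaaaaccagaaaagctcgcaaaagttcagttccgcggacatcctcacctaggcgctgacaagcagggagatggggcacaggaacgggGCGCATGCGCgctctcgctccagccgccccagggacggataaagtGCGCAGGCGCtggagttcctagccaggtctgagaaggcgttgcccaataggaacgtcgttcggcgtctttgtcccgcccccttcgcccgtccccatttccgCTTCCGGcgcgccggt
Sdha: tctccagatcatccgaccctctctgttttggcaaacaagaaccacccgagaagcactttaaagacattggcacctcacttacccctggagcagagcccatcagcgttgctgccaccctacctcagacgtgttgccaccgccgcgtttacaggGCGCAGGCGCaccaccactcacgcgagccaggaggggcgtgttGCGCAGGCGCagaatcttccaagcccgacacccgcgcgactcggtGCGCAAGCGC
Cox6a1 held the NRF1 word at 2 places and the ETS word, read on the other strand, close to the start. Sdha held the NRF1 word at 3 places. The NRF1 word occurred in 17 of 67 member windows (25.4%), against 11.8% of windows of detected genes and 5.19% of all windows. The ETS word occurred in 16 members (23.9%), against 19.8% of detected genes and 9.93% of all. The YY1 word occurred in 9 (13.4%), against 5.37% and 3.19%, and TATAAA in 7 (10.4%), against 8.46% and 15.7%. At least 1 of the first 3 words was present in 36 members, including 10 of 13 in complex V and 3 of 13 in complex IV. The share of other genes with any of the 3 was not computed. The complex IV windows included those of Cox6b2, Cox7a1, Cox7b2 and Cox8b, which were not detected and held none of the 3 words. Detected members with the NRF1 word had medians of 21.9 and 28.4 CPM per kb in A and B and those without it 26.3 and 29.0. For the ETS word the medians were 37.2 and 32.9 with it and 23.8 and 27.1 without it. For the YY1 word they were 24.1 and 26.4 with it and 25.9 and 29.3 without it. These matches are descriptions of letters and not of bound sites.

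The members ranked alike in the libraries, with a Spearman's rho of 0.81 over the 76 detected members, but individual genes lay several-fold apart. Each gene's counts in A and B were set against the library totals in an exact two-sided binomial test, and a gene was called at a Benjamini-Hochberg adjusted p under 0.05 over 14107 genes with a difference of at least 2-fold in CPM + 0.5. This compares these 2 libraries only, and separately amplified libraries differ by more than counting error. Of 80 members tested, 14 (17.5%) were called higher in B, against 32.3% of all tested genes, and 6 (7.5%) higher in A, against 10.3%. In either direction 42.6% of all tested genes were called, while 60 of the 80 members were not. The median log2 ratio of B over A was 0.27 over the tested members and 0.53 over all tested genes. The gap was smaller among detected genes of like length. Under 1000 bases the median was 0.14 over members and 0.17 over all detected genes, and at 1000 bases or more 0.30 and 0.40. With TMM factors the median was -0.10 over the tested members and 0.17 over all tested genes. Then 9 members (11.25%) were called higher in B, against 22.4% of all tested genes, and 7 (8.75%) higher in A, against 14.8%. With DESeq2 size factors it was -0.18 and 0.08, with 9 members (11.25%) called each way, against 20.98% of all tested genes higher in B and 16.1% higher in A.

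Complex I, with 35 of the 80 tested members, held 9 of the 14 called higher in B and 3 of the 6 called higher in A. These were smaller shares of its 35 genes than the 32.3% and 10.3% of all tested genes. Ndufa5, an accessory subunit, had 23 counts in A and 272 in B, 2.91 and 19.8 CPM, a log2 ratio of 2.57 with an adjusted p of 2.75e-29 in the exact binomial test. Ndufb8, of the membrane arm, had 2.65 and 18.0 CPM, and Ndufs3, a core subunit, 3.28 and 19.7 CPM. Atp5sl had 2.65 and 16.8 CPM and Cox6b2 0 and 1.75 CPM. In the other direction Ndufa9, an accessory subunit beside the quinone site, had 575 counts in A and 246 in B, 72.6 and 17.9 CPM, a log2 ratio of -1.99 with an adjusted p of 9.90e-83 in the exact binomial test. Ndufa6 had 23.7 and 6.84 CPM, Ndufc1 79.1 and 27.5 CPM, Cox7a2 72.1 and 26.4 CPM and Atp5e, the epsilon subunit of complex V, 28.7 and 12.1 CPM.

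Under all 4 scalings tried, 9 members were called higher in B, the 5 just named with Ndufa2, Ndufa7, Ndufa10 and Ndufs6, and 6 were called higher in A, the 5 just named with Atp5a1. The share of all tested genes called under all 4 was not computed. Under each single scaling a smaller share of members than of all tested genes was called in each direction. Scaled to the library totals, none of the 8 members of complex III was called, against 42.6% of all tested genes in either direction. Complexes I and IV had members called in both directions. In complex IV, with the library totals, those higher in B were Cox6a2 and Cox6b2, which were not detected. The only detected gene called there was Cox7a2, higher in A. Cox5b of complex IV, 2.01-fold higher in A, and Uqcrq of complex III, 2.01-fold higher in B, fell just under 2-fold once 0.5 CPM was added. The spread of the detected complex I genes on the log2 scale was larger in A, at an SD of 1.47, than in B, at 0.86.

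**Figure D4:**
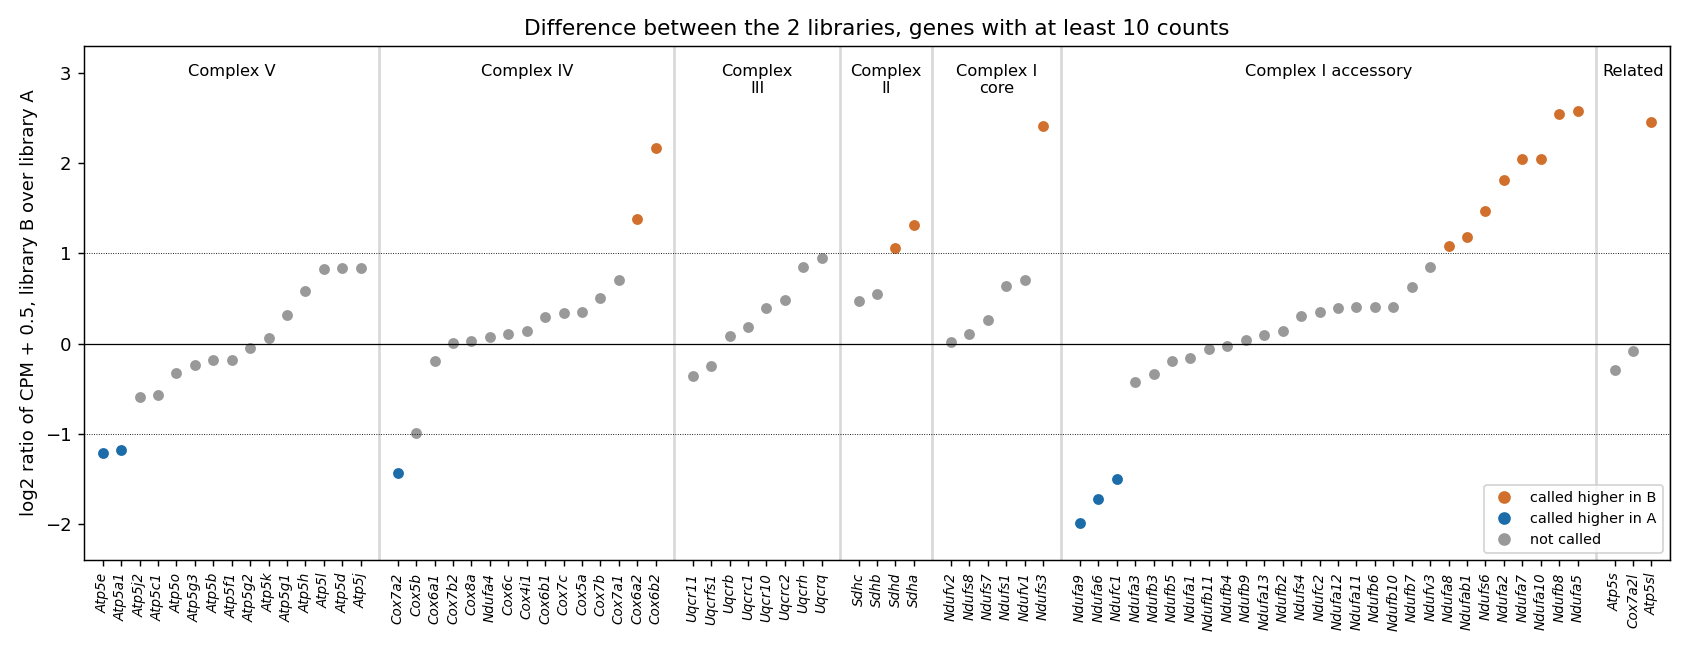
Log2 ratio of CPM + 0.5 in library B over library A for members with at least 10 counts, by complex; dotted lines mark 2-fold and colours mark calls. Complex I accessory genes reach both ends, from -1.99 for Ndufa9 to 2.57 for Ndufa5, while no complex III gene was called.

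The rest of the pathway was described with lists of genes named by function. The 5 chain genes that the naming rule leaves out were all detected, with medians of 45.1 CPM per kb in A and 51.3 in B. The highest by mean were Atpif1, the inhibitor of the ATP synthase, with 193 and 144 CPM per kb, Usmg5, a small synthase subunit, with 83.3 and 51.3, and Cycs, the electron carrier cytochrome c, with 45.1 and 54.9. The 6 carriers and pores that move ADP, ATP and phosphate were detected too, with medians of 102 and 148 CPM per kb. Slc25a4, the ADP/ATP carrier of heart, muscle and brain, had 2763 and 1420 CPM, or 1435 and 737 CPM per kb, above Atp5b in both libraries. Slc25a3, the phosphate carrier, had 145 and 180 CPM per kb, and Vdac1, a pore of the outer membrane, 128 and 147.

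Genes that build the complexes had lower medians than the subunits themselves. Their median transcript lengths were 1537 bases for assembly factors, 1766 for coenzyme Q synthesis genes and 3330 for biogenesis regulators, against 714 for the members. How far length bears on the lower medians was not tested. Of 40 assembly factors 35 were detected, with medians of 4.08 CPM per kb in A and 8.45 in B, and of 39 tested 14 were called higher in B and 3 higher in A. Ndufaf4, a complex I assembly factor, had 285 and 55.7 CPM per kb, Cox20 had 119 and 59.3 and Ttc19 17.6 and 26.0. Of 12 coenzyme Q synthesis genes 10 were detected, with a median of 2.83 ± 0.459 CPM per kb (SD, n = 2 libraries) and 4 of 11 tested called higher in B. The highest by mean were Coq5 with 17.9 and 28.3 CPM per kb, Coq2 with 3.84 and 6.14, and Coq10b with 2.41 and 7.10, though in A alone Pdss1, with 5.77, was above Coq2 and Coq10b. Of 15 regulators of mitochondrial biogenesis 9 were detected, with medians of 0.908 and 1.99 CPM per kb, and of 14 tested 6 were called higher in B and 2 higher in A. These counts stand beside 32.3% of all tested genes called higher in B and 10.3% higher in A. Gabpa, the DNA-binding part of GABP, had 36.4 and 49.7 CPM per kb, the coactivator Ppargc1a 27.2 and 16.9, and the mitochondrial transcription factor Tfb2m 15.9 and 14.1.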

How the data were processed

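RNA of J-RGCs at postnatal day 6 was measured in 2 libraries of 1 group, each from 5 to 6 pooled animals of a separate litter per the labels. For each library the authors deposited a table of raw read counts, 1 line a gene symbol, in whole numbers. Tools named in the submitters' processing notes are HTSeq 0.6.1, TopHat2 2.0.10 and Trimmomatic 0.32, and the build is mm9. Settings, annotation and use of strand were not given. The summary lines closing each table were kept out of totals. A gene took 26.8% of the reads listed for A and 30.9% of those for B.

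CPM was computed per library over gene counts of 7916204 in A and 13744313 in B. Lengths came from GENCODE M21 on GRCm38, the transcript with the longest coding sequence and, among equals, the shortest transcript, a choice made after lengths were seen. By symbol 84 members matched and by synonym 1, and 23715 of 24015 symbols in all. Files and reference differ in build, so no coordinate was carried over, and the printed coordinates are of RefSeq promoter windows on GRCm38.p6. A gene was called detected at 1 CPM or more in both libraries, and log2 values used a pseudocount of 0.5.

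With 1 group no quasi-likelihood contrast was possible. Counts of a gene in the libraries were tested with a two-sided exact binomial test (the smaller tail doubled), adjusted by Benjamini and Hochberg's method over all genes having 10 or more counts. Intervals of 95% on the ratio of a pair of genes combined counting error with the trended dispersion of an intercept-only edgeR 4.0.16 fit with TMM factors over 11272 genes (biological coefficient of variation 0.507). Against a gene with 1 to 3 counts an exact counting interval was used, and against a gene with none a bound at 3 counts over both libraries. Reads carry no molecular identifiers, so counting intervals and floors cover counting error only. The tests were tried on simulated data. Alternatives were TMM and DESeq2 1.42.0 size factors, a total without the ribosomal RNA-like genes, count filters, other lengths and leaving out a library.

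The members and lists were chosen with earlier results of these data known. The genes named with values were the complex I core and all of complex II, the 2 highest and 2 lowest detected genes of each complex, the isoform families, undetected members, the 5 largest library ratios each way among those called, and the 3 highest of each list. A few others were named for their role after values were seen. For 1 member the values are not reported here, by name or in the plots, though counts and medians over the members include it. Software was R 4.3.3 and Python 3.11.15 with numpy 2.4.6, pandas 2.3.3, scipy 1.17.1 and matplotlib 3.10.9.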

Additional observations from a re-analysis of the deposited data

How the results depend on the processing

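Of the values recomputed under each alternative, 176 kept their direction and side of the threshold, 13 moved, 3 lost their call and 6 reversed; the cause was not tested. With summed exon lengths the median level was 13.6 CPM per kb over all members, 8.06 for complex I, 25.3 for complex III, 16.3 for complex IV and 24.5 for complex V, the log2 ratio of Atp5b over Atp5a1 was 0.75 and no longer called, and that of Atp5g1 over Atp5g3 reversed to -1.19. With the longest transcript among equals, a setting chosen after seeing the data, Atp5g1 over Atp5g2 was 0.94 and no longer called and Atp5g1 over Atp5g3 was -2.73. Without the ribosomal RNA-like genes complex III was at 37.6 CPM per kb. With at least 10 counts the median log2(CPM + 0.5) of members was 4.49. TMM and DESeq2 factors each gave 9 members higher in B, and turned the median log2 ratio of all 85 members to -0.070 and -0.16. Leaving out a library moved the log2 ratios between 5.12 and 7.65 for Cox4i1 over Cox4i2, 6.53 and 7.80 for Cox6a1 over Cox6a2, 2.51 and 4.41 for Cox6b1 over Cox6b2, and 8.39 and 9.25 for Ndufa4 over Ndufa4l2, where library A alone gives bounds, and 4.74 and 7.72 for Cox7a2 over Cox7a1. It moved Cox7a2 over Cox7a2l between -0.42 and 0.95, Atp5g1 over Atp5g3 between -0.041 and 0.51, and Atp5b over Atp5a1 between 1.17 and 2.16, the lower one without library B and not called. No paired analysis was possible because there was only 1 group. Depth limits genes without a count to 0.379 CPM in A and 0.218 CPM in B, and with 2 libraries the spread of a single gene is poorly known, so intervals rest on dispersion shared over all genes.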

Other observations

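A few genes that serve the chain without being part of it lay far apart between the libraries, and these were chosen after their values were seen. Ndufaf4, the complex I assembly factor, had 1034 CPM in A and 202 CPM in B, so that in A it stood above every member but Atp5b in CPM. Foxred1, another complex I assembly factor, had 50.9 and 8.80 CPM, and Tfb1m, a methyltransferase of mitochondrial ribosomal RNA, 13.5 and 1.31 CPM. In the other direction Nrf1, whose word was searched in the promoters, had 3 counts in A and 124 in B, or 0.379 and 9.02 CPM. Cox10, which acts in the synthesis of heme A for complex IV, had 3.92 and 29.5 CPM. Cox11, which brings copper to the same enzyme, had 2.40 and 16.8 CPM, and Coq3, of coenzyme Q synthesis, 0.126 and 8.73 CPM. Each of these 7 genes was called in the exact binomial test, which compares these libraries only.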
